A study of Mus musculus with 2 samples.

Results

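YAP and TAZ are transcriptional coactivators that the Hippo kinase cascade keeps out of the nucleus. When they enter it, they bind DNA through TEAD factors and switch on genes of growth, adhesion, the actin cytoskeleton and secreted signals. In the liver they are known for their part in biliary fate, in fibroblast activation and in cholangiocarcinoma (CCA), the cancer of the bile duct. The 10 genes described here are listed YAP/TAZ target genes: *Ankrd1*, *Amotl1*, *Amotl2*, *Axl*, *Crim1*, *F3*, *Gadd45b*, *Arhgef17*, *Nt5e* and *Ptpn14*. They were taken by symbol, and all 10 were found, each once, among the 32589 genes of the count tables. As targets they include feedback inhibitors of YAP (*Amotl1*, *Amotl2*, *Ptpn14*), a nuclear cofactor (*Ankrd1*), membrane and signaling proteins (*Axl*, *F3*, *Nt5e*, *Crim1*, *Arhgef17*) and a stress-response gene (*Gadd45b*).

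Single-cell RNA-Seq was measured in tumor-bearing livers of shYT mice, 1 library per group. CCA was raised by hydrodynamic tail vein injection (HDTVI), which brings plasmids into hepatocytes, here for the Notch intracellular domain (NICD) and myristoylated AKT. All animals of both groups carry doxycycline-inducible shRNAs that target *Yap1* and *Wwtr1*, which encodes TAZ, under a ubiquitously expressed reverse transactivator, and the shRNAs were switched on from day 25. One group then received PBS and the other an antibody against the T cell checkpoint receptor PD-1 (clone RMP1-14) (days 26, 29 and 32). Livers were collected on day 33. Because both libraries come from shYT animals, the effect of YAP/TAZ depletion on its targets was not measured. The comparison asks whether target genes differed between anti–PD-1 and PBS under depletion. The labels give no sex, number of animals, shRNA line or batch. A legend of the study names several samples per group for its T cell maps of this experiment, and how these relate to the libraries used here is not given in the sources used here.

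After filtering, 15531 PBS cells and 16360 anti–PD-1 cells remained, with median unique molecular identifier (UMI) counts of 3159 and 2990 per cell. Cells were assigned to classes by markers that hold no target gene, and 9 of 17 classes had at least 100 cells in each library. Of the 64 markers of these 9 classes, 62 were at least 5 times the median of the other 8 classes in both libraries. Of the remaining 2, *Ly6c2* in monocyte/macrophage-like cells is one. The tumor cell-like class held 812 PBS and 419 anti–PD-1 cells, the cancer-associated fibroblast-like (CAF-like) class 534 and 212, and the endothelial cell-like class 534 and 102. The markers of the tumor cell-like class are also those of normal biliary epithelial cells, so the class does not separate the 2 cell types. The tumor cell-like class leaves out many cells of the clusters named as tumor cells by the same markers, which held 2186 PBS and 1876 anti–PD-1 cells, of which 804 and 413 were in the class. Of the other cells of these clusters, 376 and 593 were in another class and 1006 and 870 in none, so these clusters are mixed. Of all cells, 12.1% with PBS and 10.3% with anti–PD-1 entered no class. The libraries also differ in the sex of their cells: *Xist*, transcribed from the inactive X chromosome of females, counted 18452 UMIs with PBS and 11 with anti–PD-1, while 4 Y-linked genes had 3113 and 15323. Sex makeup and treatment therefore cannot be told apart in the pooled values. A set of 219 barcodes occurred in both libraries.

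All values below are UMIs summed over the cells of a class and library, given as counts per 1000000 UMIs (CPM) of that class. Each group is 1 library, so no test was made and there is no replicate spread. Intervals are exact 95% intervals and cover counting error only, which is too small a measure of how 2 groups of animals would differ. A gene was compared in a class when it had at least 20 UMIs over both libraries, and a CPM ratio of at least 2-fold is called higher or lower. Levels of different genes are not compared, since 3′ UMI counts carry no common scale across genes.

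The promoters of the target genes are shown because TEAD factors bind the letters GGAATG, and because AP-1 factors, which often share enhancers with TEAD, bind TGANTCA. RefSeq windows of GRCm38.p6, from 250 bases before to 50 bases after each transcription start, were found for 9 of the 10 genes; *Arhgef17* had none. GGAATG, on either strand, occurred in the windows of 5 of these 9 genes and in 14.7% of the 32851 windows of all genes. TGANTCA occurred in 1 of the 9, *F3*, and in 7.81% of all windows. None of the 9 windows held both motifs. The stretches around the matches are given 5′ to 3′ on the gene's strand, with the matched letters (GGAATG or its reverse complement CATTCC, or TGANTCA) in capitals.
*Ankrd1*, farther match, chr19:36120037-36120066, minus strand: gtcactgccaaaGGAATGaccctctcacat
*Ankrd1*, nearer match, chr19:36119950-36119979, minus strand: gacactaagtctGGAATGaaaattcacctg
*Amotl2*, chr9:102717727-102717756, plus strand: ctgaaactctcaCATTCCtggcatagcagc
*Axl*, chr7:25788949-25788978, minus strand: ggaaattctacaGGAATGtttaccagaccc
*Crim1*, chr17:78200157-78200186, plus strand: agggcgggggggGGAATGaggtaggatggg
*Ptpn14*, chr1:189728110-189728139, plus strand: cctccccggacgCATTCCtggcccgcccag
*F3*, chr3:121723385-121723414, plus strand: cgctgtTGAATCAcggtTGAGTCAcccctt

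*Ankrd1* was the only one of the 9 with 2 matches to GGAATG, at 210 and 123 bases before the RefSeq start. The *Ankrd1* stretches lie in an exon of 1 of its 6 GENCODE transcripts, and the *Amotl2* stretch in an exon of 2 of 14, so they are transcribed in some isoforms. The other 4 stretches overlap no exon of their gene. In *F3* both AP-1 matches, TGAATCA and TGAGTCA, stand 146 and 135 bases before the start. The windows of *Amotl1*, *Gadd45b* and *Nt5e* held neither motif. A match is a description of the letters, and binding was not measured.

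The RNAs that the shRNAs target were found in both libraries. In tumor cell-like cells *Yap1* stood at 9.80 CPM with PBS and 12.6 CPM with anti–PD-1, and *Wwtr1* at 11.8 and 7.78 CPM. CAF-like cells had 19.6 and 17.1 CPM of *Yap1* and 94.1 and 63.5 CPM of *Wwtr1*. With no library of animals without these shRNAs among the 2, these levels do not measure the knockdown.

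The 10 target genes did not share a cell type (see the plot of levels by cell class). *Amotl1*, *Amotl2*, *Ptpn14* and *Arhgef17* were highest in tumor cell-like, CAF-like or endothelial cell-like cells and lay below 10 CPM in all 6 immune classes, among the 9 classes compared. *Crim1* was highest in endothelial cell-like cells, *F3* in tumor cell-like cells and, in the PBS library, *Ankrd1* in CAF-like cells. *Axl* was led by Kupffer cell-like cells, *Nt5e* by T cell-like cells and *Gadd45b* by neutrophil-like cells. The leading class was the same in both libraries for 7 of the 10 genes, the exceptions being *Ankrd1*, *Arhgef17* and *Ptpn14*. For these 3 genes the intervals of the first and second class overlapped in the anti–PD-1 library. They also overlapped there for *Amotl1*, *Amotl2* and *F3*, and in the PBS library for *Amotl2*, *Arhgef17* and *Ptpn14*.

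**Figure D1:**
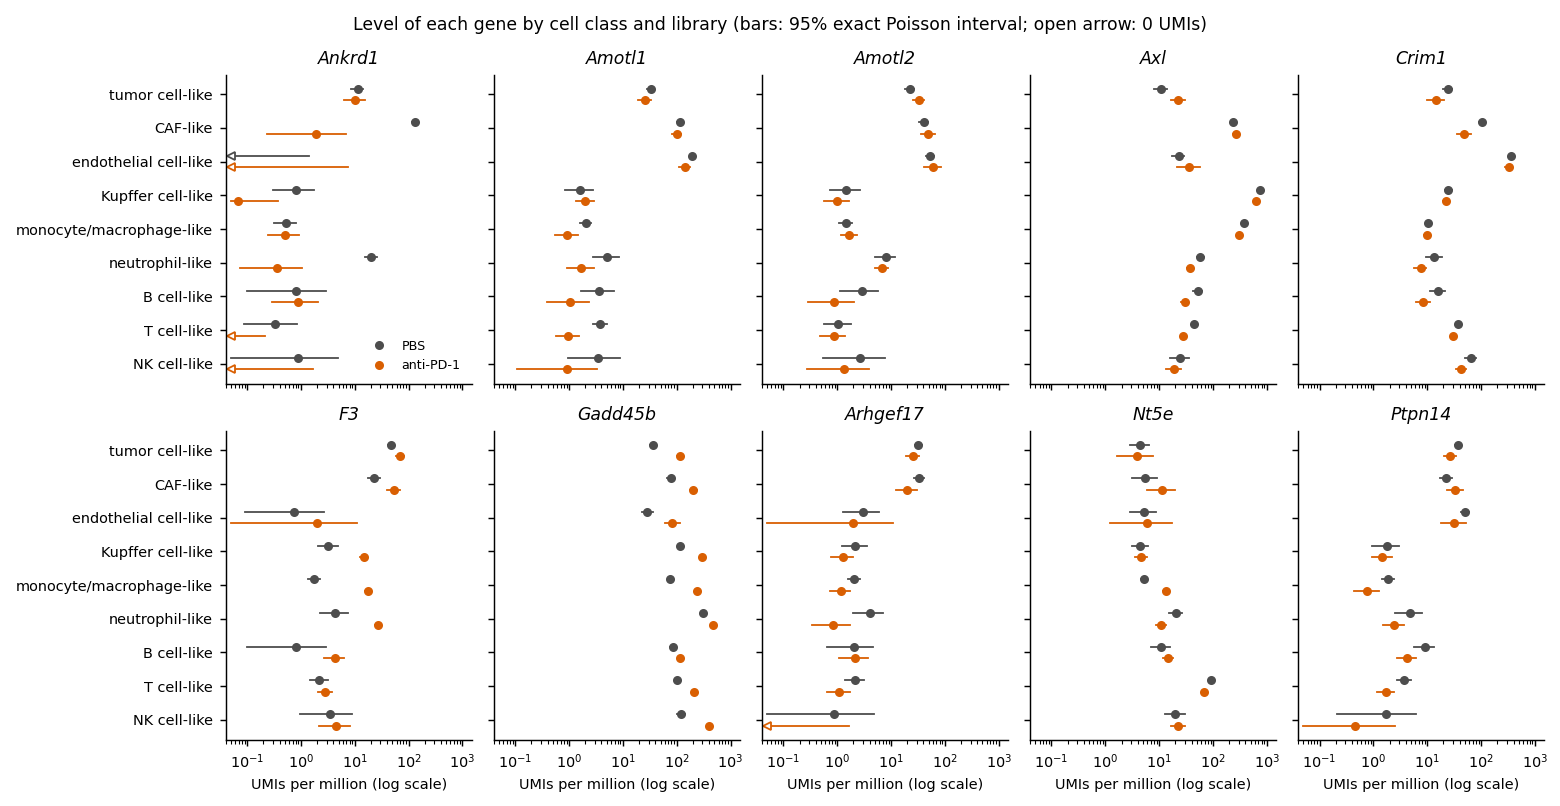
Levels of the 10 target genes in CPM (log axis) for 9 cell classes, PBS in gray and anti–PD-1 in orange, 1 library each; bars are 95% exact Poisson intervals and open arrows mark 0 UMIs. *Ankrd1* in CAF-like cells separates the libraries at 130 against 1.90 CPM, and *Gadd45b* lies further right with anti–PD-1 in all 9 classes.

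In tumor cell-like cells, 2 of the 10 target genes were at least 2-fold higher with anti–PD-1 (*Axl* and *Gadd45b*) and 0 at least 2-fold lower. Over all 12478 genes compared in this class, 5.51% were that much higher and 6.73% that much lower. The median log2 ratio of the target genes was −0.17, beside −0.04 over all genes. Counting intervals lay above 1 for 4 genes (*Amotl2*, *Axl*, *F3*, *Gadd45b*), below 1 for 2 (*Crim1*, *Ptpn14*) and spanned 1 for the other 4. The share of all 12478 genes with such intervals was not counted, so these counts do not set the target genes apart.

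In CAF-like cells, 3 were at least 2-fold higher (*F3*, *Gadd45b*, *Nt5e*) and 2 at least 2-fold lower (*Ankrd1*, *Crim1*), beside 5.35% and 6.41% of all genes. The median log2 ratio was 0.24, beside −0.02 over all 11309 genes. In endothelial cell-like cells 6 of the 10 had enough UMIs, of which 1 was called higher (*Gadd45b*) and 0 lower, beside 5.32% and 9.09% of all genes.

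**Figure D2:**
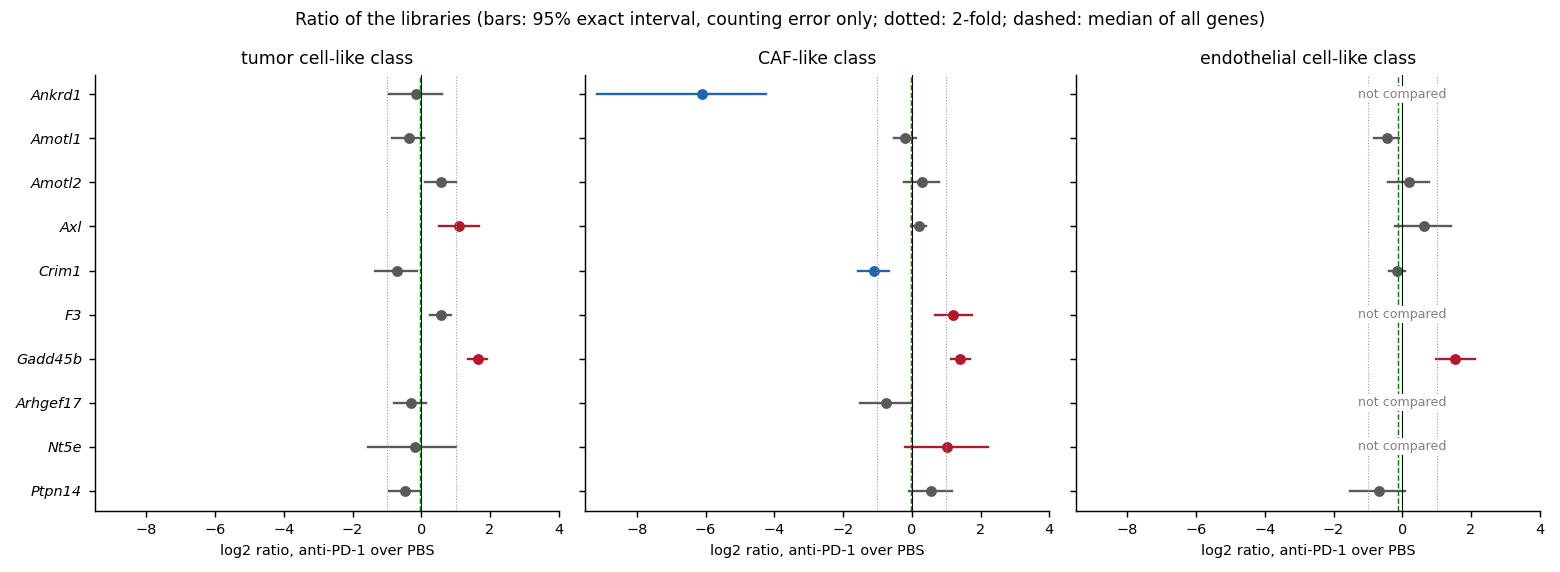
Log2 ratio of CPM, anti–PD-1 over PBS, for each target gene in tumor cell-like, CAF-like and endothelial cell-like cells; bars are 95% exact intervals of counting error, dotted lines mark 2-fold and the dashed line the median of all genes. Red points are at least 2-fold higher and blue points at least 2-fold lower. *Ankrd1* in CAF-like cells, at −6.10, lies farthest from 0 of all points shown.

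*Ankrd1* encodes an ankyrin repeat protein of the nucleus and the sarcomere and is a much-used readout of YAP/TAZ activity (chromosome 19, 36111961 to 36120099, minus strand). In CAF-like cells 350 *Ankrd1* UMIs were counted with PBS and 2 with anti–PD-1. That is 130 CPM (116 to 144) against 1.90 CPM (0.230 to 6.85), a level 68.4-fold lower with anti–PD-1 (18.8 to 567). The size of this ratio moves with the cells and UMIs used: thinned to 1000 UMIs per cell it was 10.5-fold, from 55 and 2 UMIs, and in cells with no macrophage marker UMI at least 4.20-fold, with 97 UMIs counted over 114 cells in the former library, 0 over 20 cells in the latter, and 3 counts put in place of the 0. The UMIs of the PBS library were held by few cells: 68 of 534 CAF-like cells had at least 1, 9 had 10 or more, the highest had 55, and the 10 highest cells held 66.9% of them. Without these 10 cells, 116 UMIs remained. In the anti–PD-1 library 2 of 212 cells had 1 UMI each.

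**Figure D3:**
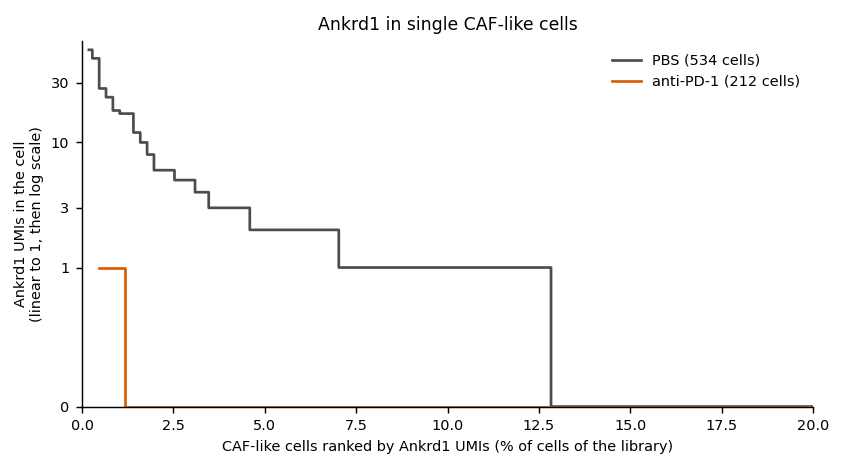
*Ankrd1* UMIs in single CAF-like cells, ranked from the highest, against the share of the cells of each library in percent; the y axis is linear to 1 and logarithmic above. The 534 PBS cells reach 55 UMIs, while the 212 anti–PD-1 cells reach 1.

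The gap was also present at equal depth. Thinned to 1000 UMIs per cell, 6.35% of 441 cells with PBS (4.26 to 9.05) and 1.18% of 169 with anti–PD-1 (0.144 to 4.21) held an *Ankrd1* UMI, where 12.7% and 0.943% did before thinning. These intervals, from 1 random draw of UMIs, only just miss each other (4.26 and 4.21). They cover the counting of cells within 1 library each, and the anti–PD-1 share rests on 2 cells. In monocyte/macrophage-like cells, which should lack the gene, thinned shares were 0.0969% and 0.0860%. Within the PBS library, *Ankrd1* was found in CAF-like cells that held *Xist* but no Y-linked RNA (187 UMIs in 213 cells, 128 CPM) and in those that held Y-linked RNA but no *Xist* (20 UMIs in 37 cells, 71.1 CPM). Among anti–PD-1 CAF-like cells of the latter kind, 97 cells held 0 UMIs.

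The cells with *Ankrd1* had more RNA of contractile genes. In the PBS library, CAF-like cells with an *Ankrd1* UMI had 8917 CPM of *Acta2* (smooth muscle actin) and 885 CPM of *Cnn1* (calponin), against 2749 and 163 CPM in those without. They also had more *Ccn1* (785 against 216 CPM) and *Ccn2* (3728 against 1805 CPM), which are secreted matricellular targets of YAP/TAZ, and more *Crim1* (185 against 85.9 CPM). The other 8 target genes were not all at higher levels. *Amotl1* (105 against 117 CPM), *Axl* (214 against 242), *F3* (12.3 against 25.3), *Gadd45b* (67.8 against 78.7) and *Nt5e* (0 against 6.78) were at lower levels, and *Amotl2* (43.1 against 39.8), *Arhgef17* (39.0 against 32.6) and *Ptpn14* (24.6 against 22.2) at slightly higher ones, with no interval computed for these splits. *Rgs5*, a pericyte marker, was lower (546 against 1583 CPM). The 68 cells with a UMI were deeper than the 466 without, at a median of 5755 against 2680.5 UMIs. *Acta2*, *Cnn1*, *Tagln* and *Rgs5* were chosen after their values were seen.

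The contractile genes themselves were lower in the anti–PD-1 CAF-like class. *Acta2* stood at 3862 CPM with PBS and 711 CPM with anti–PD-1, *Tagln* (transgelin) at 3504 and 764 CPM, and *Cnn1* at 294 and 19.9 CPM. A UMI of at least 1 of these 3 genes was found in 65.7% of the 534 cells with PBS (61.5 to 69.8) and in 45.3% of the 212 with anti–PD-1 (38.5 to 52.2), and after thinning in 54.2% (49.4 to 58.9) and 36.1% (28.9 to 43.8). Among cells with such a UMI, *Ankrd1* had 346 UMIs with PBS and 2 with anti–PD-1 (163 against 3.59 CPM). Cells without one held 4 and 0. A single UMI can come from free RNA: 15.3% and 7.25% of monocyte/macrophage-like cells, 3.39% and 1.25% after thinning, also held a UMI of these genes. The part of a different makeup of CAF-like cells in the *Ankrd1* gap was not tested.

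Tumor cell-like cells had 61 UMIs with PBS and 21 with anti–PD-1, which is 11.3 and 10.2 CPM and a ratio of 0.904 (0.523 to 1.51). Among those that held Y-linked RNA but no *Xist* the counts were 1 and 11 (1.90 and 8.24 CPM), under the 20 UMIs set for a comparison. Neutrophil-like cells had 56 and 3 UMIs, but 48 of the 56 came from 1 cell; without that cell the PBS level went from 20.3 to 2.90 CPM. Endothelial cell-like cells had 0 in both.

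*Crim1* encodes a transmembrane protein that binds bone morphogenetic proteins (chromosome 17, 78200248 to 78376592, plus strand). In CAF-like cells it had 280 UMIs with PBS and 51 with anti–PD-1, or 104 and 48.4 CPM, 2.15-fold lower with anti–PD-1 (1.59 to 2.95). The call was lost after thinning to 1000 UMIs (1.67-fold, from 48 and 11 UMIs) and under a wider cell filter (1.56-fold). In CAF-like cells with a UMI of *Acta2*, *Tagln* or *Cnn1* it was 124 against 55.6 CPM. In CAF-like cells without a UMI of the 3 contractile genes *Crim1* stood at 26.4 CPM with PBS and 40.2 CPM with anti–PD-1, from 15 and 20 UMIs. Tumor cell-like cells pointed the same way as the whole CAF-like class, at 23.9 and 14.6 CPM (1.64-fold lower, 1.09 to 2.52; 4.15-fold thinned, from 26 and 3 UMIs). Endothelial cell-like cells, where *Crim1* was highest, stood at 364 and 328 CPM with an interval that spans 1.

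*Arhgef17* encodes a guanine nucleotide exchange factor (chromosome 7, 100869752 to 100932107, minus strand). It was lower with anti–PD-1 in CAF-like cells, at 33.7 against 19.9 CPM (1.69-fold, 1.05 to 2.87), and in tumor cell-like cells stood at 32.0 and 25.8 CPM with an interval from 0.580 to 1.10. It missed 2-fold in both. Among tumor cell-like cells that held Y-linked RNA but no *Xist* the direction turned, with 8 and 41 UMIs or 15.2 and 30.7 CPM (2.02-fold higher with anti–PD-1). CAF-like cells of that kind gave 14 and 15 UMIs, 2.60-fold lower.

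The targets include 3 feedback inhibitors of YAP. *Amotl1* and *Amotl2* encode angiomotin-like proteins that hold YAP at junctions, and *Ptpn14* a phosphatase that binds YAP. *Amotl1* had 180 and 53 UMIs in tumor cell-like cells, or 33.3 CPM with PBS and 25.8 CPM with anti–PD-1 (ratio 0.774, 0.558 to 1.06). *Amotl2* was 22.4 and 33.0 CPM there (ratio 1.48, 1.08 to 2.00), and *Ptpn14* 37.2 and 26.7 CPM (0.719, 0.523 to 0.973). Thinned to 1000 UMIs per cell, *Amotl1* and *Amotl2* both lay below 1, *Amotl1* at 0.696 from 24 and 8 UMIs and *Amotl2* at 0.939 from 20 and 9. No interval was computed for these thinned ratios, and the cause of the turned direction of *Amotl2* was not tested. It also turned in cells without a macrophage marker UMI, from 20 and 1 UMIs. CAF-like cells gave *Amotl1* 115 and 101 CPM, *Amotl2* 40.4 and 49.3 CPM and *Ptpn14* 22.6 and 33.2 CPM, each with an interval that spans 1. In endothelial cell-like cells, *Amotl1* was 193 CPM with PBS and 141 CPM with anti–PD-1 (1.36-fold lower, 1.06 to 1.77), while the intervals of *Amotl2* and *Ptpn14* span 1.

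*Axl* encodes a receptor tyrosine kinase by which macrophages and fibroblasts sense Gas6 (chromosome 7, 25757273 to 25788705, minus strand). It was most abundant in Kupffer cell-like cells (745 CPM with PBS and 620 CPM with anti–PD-1), then in monocyte/macrophage-like cells (371 and 304 CPM) and CAF-like cells (237 and 271 CPM). Both macrophage classes were lower with anti–PD-1, by 1.20-fold (1.16 to 1.24) and 1.22-fold (1.18 to 1.26). These are log2 ratios of −0.26 and −0.28, beside medians over all genes of −0.14 and −0.18. The cluster that held most monocyte/macrophage-like cells with PBS had 429 and 419 CPM of *Axl*. The one that led with anti–PD-1 had 467 and 393 CPM, and the next largest 75.5 and 79.9 CPM. The part of cell makeup was not tested. The CAF-like ratio was 1.14 with an interval from 0.992 to 1.32.

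The 2-fold call of *Axl* in tumor cell-like cells rests on 58 PBS and 47 anti–PD-1 UMIs, or 10.7 and 22.8 CPM (2.13-fold, 1.42 to 3.18). Macrophage RNA moved with it: the summed level of the 6 Kupffer cell markers in this class was 65.8 CPM with PBS and 272 CPM with anti–PD-1, that of the 8 monocyte/macrophage markers 385 and 510 CPM, and none of the 14 was at 0. Per 100 UMIs of these 14 markers, tumor cell-like cells held 2.38 *Axl* UMIs with PBS and 2.92 with anti–PD-1. The macrophage classes themselves held between 2.02 and 2.59, and T cell-like cells 2.50 and 1.74. CAF-like cells held 29.1 and 30.7. In tumor cell-like cells with no UMI of *Ptprc*, the pan-leukocyte marker, *Axl* stood at 8.56 and 27.3 CPM, and in clusters named as tumor cells at 35.0 and 44.7 CPM, below 2-fold. The part of macrophage RNA in this difference was not tested.

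*F3* encodes tissue factor, which starts the extrinsic coagulation cascade (chromosome 3, 121723537 to 121735048, plus strand). Tumor cell-like cells had the highest level, 257 and 144 UMIs or 47.5 and 70.0 CPM (1.47-fold higher with anti–PD-1, 1.19 to 1.81). This gap was not seen at equal depth. Thinned to 1000 UMIs, 3.13% of 766 cells with PBS (2.02 to 4.63) and 3.27% of 367 with anti–PD-1 (1.70 to 5.64) held an *F3* UMI. The thinned cells held 24 and 12 UMIs. Before thinning the shares were 18.1% and 15.8%, and 19 of the 144 UMIs came from 1 cell. In CAF-like cells *F3* was 23.0 CPM with PBS and 53.1 CPM with anti–PD-1 (2.31-fold higher, 1.58 to 3.37). In CAF-like cells that held Y-linked RNA but no *Xist* it was 39.1 and 54.8 CPM from 11 and 43 UMIs, and the call was lost. Myeloid markers stood at other levels in this class as well, the neutrophil markers at 410.0 and 1061 CPM, the Kupffer cell markers at 92.7 and 267 CPM and the monocyte/macrophage markers at 721 and 616 CPM. Their part in the *F3* difference was not tested. Ratios were larger in the myeloid classes, at 1.77 and 17.5 CPM in monocyte/macrophage-like cells (9.90-fold, 7.52 to 13.2), 4.35 and 27.0 CPM in neutrophil-like cells (6.21-fold, 3.49 to 12.2) and 3.25 and 14.7 CPM in Kupffer cell-like cells (4.51-fold, 2.95 to 7.20). In T cell-like cells it was near 0 in both libraries, at 2.20 and 2.80 CPM. B cell-like cells held 2 and 24 UMIs. The ratio in monocyte/macrophage-like cells was 5.17 after thinning to 1000 UMIs, 3.33 with 5 CPM added to both levels and 18.2 in clusters named for this class.

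The monocyte/macrophage-like class did not hold the same cells in both libraries. Of its cells, 1 cluster held 61.4% with PBS and 4.63% with anti–PD-1, and another 1.76% and 40.1%. *Ly6c2*, a marker of inflammatory monocytes, stood at 193 and 798 CPM in the class. In the former cluster *F3* had 33 UMIs with PBS (1.44 CPM) and 0 in 117 cells with anti–PD-1. The latter cluster held 2 UMIs in 74 PBS cells (3.10 CPM) and 287 in 1013 anti–PD-1 cells (28.9 CPM). Neutrophil-like cells also differed in makeup: 1 cluster held 89.2% of them with PBS and 68.4% with anti–PD-1, with 4.79 and 11.3 CPM of *F3*, and another 2.51% and 19.1%, with 8.91 CPM (from 1 UMI in 34 cells) and 80.6 CPM. The part of cell makeup in the ratios of both classes was not tested.

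The *F3* of anti–PD-1 monocyte/macrophage-like cells lay in 145 of 2525 cells. These 145 cells had more *Thbs1* (1641 against 366 CPM) and *Nt5e* (43.3 against 10.7 CPM) than the 2380 without it, and less *Axl* (235 against 311 CPM). *Thbs1*, which encodes thrombospondin, was chosen after its values were seen. *F3*-positive cells were deeper, with a median of 11586 against 6412 UMIs.

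*Nt5e* encodes CD73, the ectoenzyme that makes adenosine from AMP (chromosome 9, 88327197 to 88372092, plus strand). T cell-like cells led, with 1119 PBS and 1192 anti–PD-1 UMIs, or 91.0 and 68.1 CPM (1.34-fold lower with anti–PD-1, 1.23 to 1.45). T cell-like cells with an *Nt5e* UMI held more *Foxp3*, the marker of regulatory T cells, than those without: 97.3 against 39.3 CPM with PBS and 79.1 against 34.0 CPM with anti–PD-1. *Ccr7*, which the study uses for naive and memory-like T cells, stood at 88.6 and 93.1 CPM in these 2 kinds of cells with PBS. With anti–PD-1 it was 309 and 312 CPM, and it was chosen after its values were seen. The part of T cell makeup in the *Nt5e* ratio was not tested. In monocyte/macrophage-like cells the direction was opposite, at 5.25 CPM with PBS and 13.5 CPM with anti–PD-1 (2.58-fold higher, 2.13 to 3.13). The cluster that holds most of this class with PBS had 4.92 and 19.5 CPM of *Nt5e*, the one that leads with anti–PD-1 4.66 and 19.7 CPM, and the next largest 7.53 and 4.12 CPM. These rest on 18, 3 and 12 UMIs in the library with fewer, and the part of cell makeup was not tested. The 2-fold call in CAF-like cells came from 15 and 12 UMIs, with an interval from 0.875 to 4.68 that spans 1. Tumor cell-like cells had 24 and 8.

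*Gadd45b* encodes a protein induced by stress and by inflammatory signals that acts on p38 and JNK kinases (chromosome 10, 80930073 to 80932204, plus strand). It was higher with anti–PD-1 in all 9 classes, by at least 2-fold in 7. Tumor cell-like cells had 196 and 233 UMIs, or 36.3 CPM with PBS and 113 CPM with anti–PD-1 (3.12-fold, 2.57 to 3.80). CAF-like cells stood at 76.7 and 205 CPM (2.67-fold, 2.20 to 3.25) and endothelial cell-like cells at 28.6 and 83.5 CPM (2.92-fold, 1.95 to 4.31). In CAF-like cells without a macrophage marker UMI the direction turned, at 52.7 and 42.7 CPM, from 19 and 2 UMIs. The neutrophil markers, from the class highest in *Gadd45b*, stood at 410.0 and 1061 CPM in CAF-like cells, at 290 and 1573 CPM in endothelial cell-like cells and at 141 and 563 CPM in tumor cell-like cells. They were 187 and 1144 CPM in NK cell-like, 353 and 1763 CPM in T cell-like and 336 and 1914 CPM in B cell-like cells. Their part in the *Gadd45b* ratios was not tested. Among immune classes the ratio ran from 1.35 in B cell-like cells and 1.54 in neutrophil-like cells to 3.32 in NK cell-like cells (122 and 404 CPM). The highest level, in neutrophil-like cells, was 311 CPM with PBS and 479 CPM with anti–PD-1. In the cluster that holds most neutrophil-like cells of both libraries it was 343 and 324 CPM, and in the cluster that held 2.51% and 19.1% of them 383 and 1092 CPM. Thinned to 1000 UMIs, 4.31% of tumor cell-like cells held a *Gadd45b* UMI with PBS and 12.5% with anti–PD-1 (15.4% and 28.6% before thinning).

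Immediate early and heat shock genes, which cell dissociation is known to induce, were mostly higher with anti–PD-1 too. Of 14 such genes, all 14 were higher in tumor cell-like cells (median log2 ratio 1.70), in CAF-like cells (2.09), in endothelial cell-like cells (1.78), in Kupffer cell-like cells (1.17) and in T cell-like cells (0.71). In the same classes the log2 ratio of *Gadd45b* was 1.64, 1.42, 1.55, 1.36 and 1.04. Of the 14, 13 were higher in monocyte/macrophage-like cells (median 1.14), B cell-like cells (0.68) and NK cell-like cells (0.67), and 9 in neutrophil-like cells (0.45), beside log2 ratios of *Gadd45b* of 1.67, 0.43, 1.73 and 0.63. Their part in the difference of *Gadd45b* was not tested, and treatment and handling of the 2 libraries cannot be told apart.

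**Figure D4:**
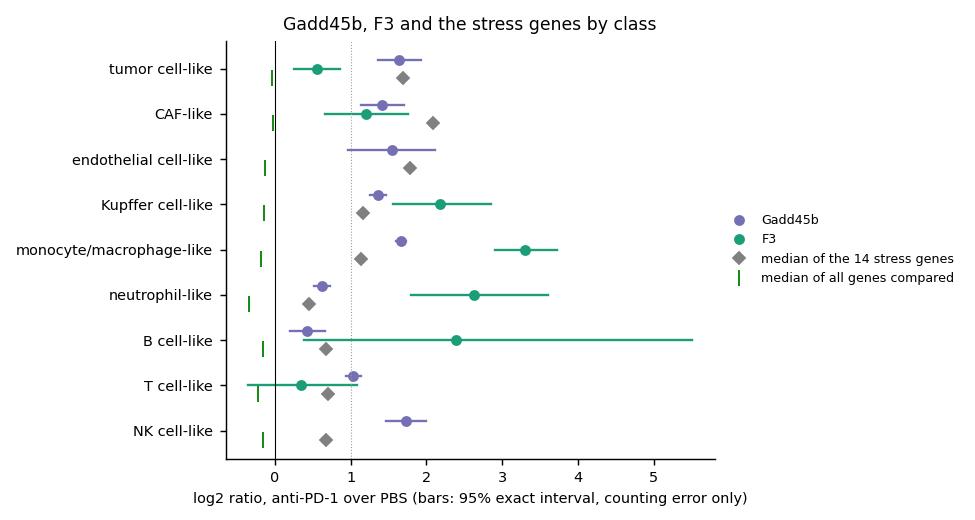
Log2 ratio of CPM, anti–PD-1 over PBS, of *Gadd45b* (purple) and *F3* (green) in each class, with 95% exact intervals of counting error; diamonds are the median of the 14 stress genes and green ticks the median of all genes compared. *F3* is left out where it had under 20 UMIs. *Gadd45b* lies right of 0 in all 9 classes, and *F3* reaches 3.31 in monocyte/macrophage-like cells.

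In Kupffer cell-like cells 9 of the 10 target genes had enough UMIs, and 2 were called higher (*F3* and *Gadd45b*) and 0 lower, beside 5.74% and 4.12% of all genes. In monocyte/macrophage-like cells all 10 had enough; 3 were higher (*F3*, *Gadd45b*, *Nt5e*) and 2 lower (*Amotl1*, *Ptpn14*), beside 6.31% and 8.31%. Neutrophil-like cells had 1 of 9 higher (*F3*) and 2 lower (*Ankrd1*, *Amotl1*), beside 4.19% and 13.7%. That *Ankrd1* call rests on 56 and 3 UMIs, 48 of the 56 in 1 cell, and without this cell *Ankrd1* fell under 20 UMIs. B cell-like cells had 1 of 6 higher (*F3*) and 1 lower (*Ptpn14*), beside 3.66% and 8.34%. That *F3* call rests on 2 and 24 UMIs, 9 of the 24 in 1 cell. Without the highest cell of each library *F3* fell under 20 UMIs, and under the wider cell filter its direction turned. T cell-like cells had 1 of 9 higher (*Gadd45b*) and 2 lower (*Amotl1*, *Ptpn14*), beside 3.55% and 11.0%. NK cell-like cells had 1 of 4 higher (*Gadd45b*) and 0 lower, beside 4.45% and 7.14%.

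The lower calls of *Amotl1* and *Ptpn14* in immune classes were made at low levels. *Amotl1* went from 2.06 to 0.920 CPM in monocyte/macrophage-like cells and from 3.74 to 0.971 CPM in T cell-like cells, and in neutrophil-like cells it had 14 UMIs in each library (5.08 and 1.70 CPM). *Ptpn14* stood at 1.89 and 0.767 CPM in monocyte/macrophage-like, 3.74 and 1.71 CPM in T cell-like and 8.91 and 4.24 CPM in B cell-like cells. In T cell-like cells the summed CAF markers stood at 198 CPM with PBS and 71.5 CPM with anti–PD-1, the tumor cell markers at 150 and 81.5 CPM and the endothelial cell markers at 91.0 and 57.6 CPM. In monocyte/macrophage-like cells the same sums were 94.8 and 63.4 CPM, 84.9 and 80.4 CPM, and 46.2 and 54.3 CPM. Neutrophil-like cells had 531 and 266 CPM, 298 and 207 CPM, and 136 and 66.8 CPM. B cell-like cells had 232 and 88.7 CPM, 178 and 121 CPM, and 195 and 123 CPM. The part of RNA from these classes in the calls was not tested.

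Among 16 further YAP/TAZ targets, 15 were compared in tumor cell-like cells, of which 5 were higher and 10 lower with anti–PD-1 (median log2 ratio −0.34, beside −0.04 over all genes). *Nuak2*, a kinase, was called higher, from 15 and 14 UMIs, and 2 were called lower, beside 5.51% and 6.73% of all genes. *Igfbp3*, a binding protein of insulin-like growth factors, had 45 and 0 UMIs, 8.32 CPM against a level that 3 counts would put at least 5.71-fold lower, and *Ccdc80*, a matrix protein, had 33 and 5. *Ccn1* was 104 CPM with PBS and 125 CPM with anti–PD-1 (ratio 1.21, 1.04 to 1.41) and *Ccn2* 32.0 and 19.0 CPM (0.592, 0.407 to 0.842).

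In CAF-like cells, 4 of the 15 compared were higher and 11 lower (median −0.24, beside −0.02 over all genes). By at least 2-fold, 0 were higher and 2 lower, beside 5.35% and 6.41% of all genes. The 2 were *Tgfb2*, a TGF-β ligand (143 and 69.2 CPM), and *Tead1*, a DNA-binding partner of YAP (135 and 64.5 CPM). *Ccn1* stood at 319 and 170 CPM and *Ccn2* at 2152 and 1094 CPM, just under 2-fold lower with anti–PD-1. Endothelial cell-like cells pointed the other way for both, with *Ccn1* at 78.6 and 256 CPM (3.26-fold higher, 2.60 to 4.08) and *Ccn2* at 903 and 1370 CPM (1.52-fold higher, 1.39 to 1.65). There 7 of 14 were higher and 7 lower. *Gadd45a* was also called higher (29.0 and 59.6 CPM) and *Igfbp3* lower (160 and 77.5 CPM), beside 5.32% and 9.09% of all genes.

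Of 15 regulators and partners of YAP/TAZ, 13 were compared in tumor cell-like cells and 14 in CAF-like cells, and 0 reached 2-fold in either class. Of all genes, 5.51% were called higher and 6.73% lower in the former class, and 5.35% and 6.41% in the latter. In endothelial cell-like cells *Tead2* (43.6 and 13.9 CPM) and *Vgll4* (112 and 45.7 CPM), a TEAD-binding repressor, were called lower with anti–PD-1, from 7 and 23 UMIs in that library. These are 2 of the 13 compared there, beside 9.09% of all genes.

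Genes of like pattern were taken from the top of 13475 genes searched. Across the 18 class sums (9 classes in 2 libraries), the gene most like *Amotl2* in log2(CPM + 5) was *Yap1* (Pearson's r = 0.984), followed by *Rhoj* (0.981). *Amotl2* was low in all immune classes, so this r weighs mainly the contrast of immune and other classes. *Amotl1* was most like *Tm4sf1* (0.992), *Ptpn14* like *Tsc22d1* (0.983), *Arhgef17* like *Pamr1* (0.982) and *Axl* like *Lpl* (0.966). *Crim1* was most like *Golga7* (0.957), *Nt5e* like *Gm47015* (0.948) and *Ankrd1* like *Reg3b* (0.900). *Gadd45b* was most like the immediate early genes *Junb* (0.883) and *Nr4a1* (0.877), and *F3* like *Stk35* (0.876). These 18 points are not independent: the classes of 1 library share its depth and its free RNA.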

How the data were processed

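The authors deposited UMI counts, not normalized, for each gene and barcode, made with Singleron software from GEXSCOPE libraries. Per the labels, processing used the mm10 genome and Seurat (version 4.3); the study's SCTransform and integration were not repeated. The study's limits on cells were applied (500 to 5000 genes detected, mitochondrial share of UMIs up to 10%), which left 79090376 UMIs with PBS and 77674743 with anti–PD-1. Each cell took the class with the largest share of its markers detected, with at least 3 of them, ties going to more marker UMIs. Counts were summed per class and library. CPM had exact Poisson intervals, ratios exact conditional (Clopper-Pearson) intervals and shares exact binomial ones; 0 stood at 3 counts per library. Ratios were tested on counts simulated with Poisson error, which the intervals assume, and without variation among cells or animals. Python 3.11.15, scipy 1.17.1 and scanpy 1.11.5 were used. Gene positions are from GENCODE vM21 (GRCm38, mm10).

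Members, lists and markers were chosen with earlier results of these data known, and the gate after the files were seen. Named were all 10 target genes, list genes at least 2-fold different in non-immune classes, *Ccn1*, *Ccn2*, *Yap1* and *Wwtr1* (the latter 2 as the shRNA targets), and the genes of most like pattern among those with at least 200 UMIs. Counting of strand and of reads shared by genes is not given in the sources used here. Alternatives were other classes (clusters), filters, scalings, UMI minimums, doublets, immune RNA, sex and depth. The doublet score's own threshold marked 0 cells, so the highest 8% of scores per library were left out in its place. Some items, among them 1 cell class marker, are not reported here.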

Additional observations from a re-analysis of the deposited data

Results flagged for a closer look

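For 2 of the 10 target genes, counting intervals lay wholly above 1 in 1 class and wholly below 1 in others. *Axl* had a log2 ratio (anti–PD-1 over PBS) of 1.09 in tumor cell-like cells and −0.79 in B cell-like cells, and its interval was below 1 in 5 classes in all. *Nt5e* had a log2 ratio of 1.37 in monocyte/macrophage-like cells and −0.93 in neutrophil-like cells, and its interval was below 1 in 2 classes. Over all genes the median log2 ratio was −0.04 in tumor cell-like, −0.16 in B cell-like, −0.18 in monocyte/macrophage-like and −0.34 in neutrophil-like cells. How many of all genes meet the same rule was not counted, so these 2 are not shown to be unusual. With 1 library per group the differences between classes were not tested. In tumor cell-like cells, 2.38 *Axl* UMIs with PBS and 2.92 with anti–PD-1 were counted per 100 UMIs of macrophage and Kupffer cell markers, and between 2.02 and 2.59 in the macrophage classes. B cell-like cells held 2.46 and 2.01. Their summed monocyte/macrophage markers stood at 1923 CPM with PBS and 1088 CPM with anti–PD-1, and their Kupffer cell markers at 186 and 405 CPM. Tumor cell-like cells with no *Ptprc* UMI had 8.56 and 27.3 CPM of *Axl*. The 2-fold call was lost with clusters, the wider cell filter or log2(CPM + 5), and in cells with no macrophage marker UMI. The part of macrophage RNA was not tested.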

How the results depend on the processing

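Of 861 values of the target genes by class under 16 alternatives (10 planned, 6 added after seeing the data), 739 stayed within the counting interval of the reported value, 119 moved beyond it and 3 called values changed sign. The alternatives that change only the UMI minimum leave each ratio as it was, so their values among the 739 were fixed in advance. *Ankrd1* in CAF-like cells kept its direction in all 15 alternatives that gave a value, with log2 ratios from −6.85 to −2.07. The former is without the highest cell of each library, which leaves 1 anti–PD-1 UMI. The latter (no macrophage marker UMI) is a bound from 3 counts, as is the value in cells that held Y-linked RNA but no *Xist*. Alternatives of the UMI minimum, counted among the 15, could not change the direction. The 3 that changed sign were *Crim1* in CAF-like cells without an *Acta2*, *Tagln* or *Cnn1* UMI (0.61), *Gadd45b* in CAF-like cells without a macrophage marker UMI (−0.30, from 114 and 20 cells) and *F3* in B cell-like cells under the wider cell filter (−0.21); the cause was not tested. In tumor cell-like cells the count of genes at least 2-fold higher went from 2 to 1 with clusters, the wider filter (200 genes, 20% mitochondrial), log2(CPM + 5) or no macrophage marker UMI, *Axl* being lost each time. The count lower went from 0 to 1 in cells that held Y-linked RNA but no *Xist*, or thinned to 1000 UMIs (*Crim1* in each), and to 3 without macrophage marker UMIs (49 anti–PD-1 cells). In the Y-linked cells *Arhgef17* took the place of *Axl* among the 2 higher. In CAF-like cells the count higher went from 3 to 1 with the wider filter, in Y-linked cells or thinned (*F3* under 2-fold in the former pair and under 20 UMIs in the last), and to 0 without macrophage marker UMIs. The count lower went from 2 to 1 with the wider filter or thinned (*Crim1* under 2-fold in each), and to 0 in cells without a contractile UMI. No paired analysis was possible because each group is 1 library. Low UMI counts of the anti–PD-1 CAF-like and endothelial cell-like classes limit what can be seen, and animals, sex and handling cannot be told apart from treatment.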
